A study of Mus musculus with 15 samples.

Results

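NRL CUT&RUN peaks at the nuclear genes of the mitochondrial respiratory chain, the mitochondrial ribosome and the mitochondrial protein import machinery were followed in the retina from postnatal day 2 (P2) to P4, P10 and P28. Peaks were taken when the gene symbol that the authors gave them began with Nduf, Cox followed by a digit, Uqcr, Atp5, Sdha to Sdhd, Mrpl or Mrps followed by a digit, Timm or Tomm. The rule took 127 of the 8996 peaks of the quantitation table, at 113 genes, of which 14 had 2 peaks. The retinas came from C57BL/6J mice, with no mutation or treatment named in the labels, and each experiment used 250000 dissociated cells and an antibody to NRL. In CUT&RUN the antibody holds a nuclease at its target, and the DNA cut free beside the target is sequenced. Each age has 2 libraries in the table, named replicates 3 and 4 except at P10, where they are 1 and 4. The other 7 of the 15 labelled libraries were not analysed here. Whether replicates are separate animals is not stated in the labels, and p-values therefore cover only the variation among these libraries, part of which could be technical. Whole retina holds many cell types, so a change in the share of rods and a change in NRL binding per rod cannot be told apart. Of listed cell type genes, 14 of 14 rod genes had a peak within 50 kb, as did 2 of 9 cone genes and 2 of 8 bipolar cell genes. It was 0 of 8 for Müller glia, 2 of 13 for amacrine, horizontal and ganglion cells, 0 of 10 for microglia and vessels and 1 of 9 for pigment epithelium. With an antibody to NRL these counts describe where its peaks lie and cannot show which cells were present.

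NRL is a basic leucine zipper factor of the Maf family that directs photoreceptor precursors to become rods. Rods use much ATP, and their inner segments are packed with mitochondria. Electrons from NADH enter the respiratory chain at complex I and those from succinate at complex II, pass through complex III to oxygen at complex IV, and the proton gradient that results drives ATP synthase, also called complex V. Apart from the few subunits coded by mitochondrial DNA, the parts of these complexes are nuclear gene products that enter through the TOM complex of the outer membrane and the TIM complexes of the inner one. The mitochondrial ribosome, built from nuclear-coded Mrpl (large subunit) and Mrps (small subunit) proteins, makes the subunits that mitochondrial DNA codes for.

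The promoters below are those of 6 of the genes named in the results, and they show where the searched motifs lie. The 6 are examples only, and the Maf core TGCTGA was in 10.9% of all member promoters searched. Mrpl24 had the strongest peak, and Tomm20 carries overlapping AP-1 and Maf letters. Tomm22 and Mrpl3 were called higher at P28 than at P10, Uqcr11 at P10 than at P4, and Timm10 at P28 than at P2. Each of these calls was lost when certain single libraries were left out, as given below. Each is the 250 bases before the annotated start, read 5′ to 3′ on the gene's strand, from RefSeq on GRCm38.p6, with each searched motif that lies wholly inside them in capitals.
Mrpl24: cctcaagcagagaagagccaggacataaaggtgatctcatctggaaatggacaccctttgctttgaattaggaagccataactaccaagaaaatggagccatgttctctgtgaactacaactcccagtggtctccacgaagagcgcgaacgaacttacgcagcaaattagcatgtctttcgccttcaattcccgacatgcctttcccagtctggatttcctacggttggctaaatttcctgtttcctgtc
Tomm20: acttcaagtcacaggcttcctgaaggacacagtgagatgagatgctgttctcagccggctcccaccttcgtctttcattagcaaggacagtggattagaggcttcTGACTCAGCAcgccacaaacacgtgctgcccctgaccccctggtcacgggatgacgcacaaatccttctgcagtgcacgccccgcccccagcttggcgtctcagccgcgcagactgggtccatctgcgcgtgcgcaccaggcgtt
Tomm22: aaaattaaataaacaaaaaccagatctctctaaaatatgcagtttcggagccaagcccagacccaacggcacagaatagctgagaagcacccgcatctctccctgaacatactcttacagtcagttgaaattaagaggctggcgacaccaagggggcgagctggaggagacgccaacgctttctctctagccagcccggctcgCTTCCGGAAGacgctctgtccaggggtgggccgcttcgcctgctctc
Mrpl3: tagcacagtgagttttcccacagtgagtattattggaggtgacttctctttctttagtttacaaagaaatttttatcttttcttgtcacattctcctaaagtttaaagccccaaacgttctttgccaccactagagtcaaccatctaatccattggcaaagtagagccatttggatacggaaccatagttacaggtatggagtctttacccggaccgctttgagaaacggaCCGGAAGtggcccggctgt
Uqcr11: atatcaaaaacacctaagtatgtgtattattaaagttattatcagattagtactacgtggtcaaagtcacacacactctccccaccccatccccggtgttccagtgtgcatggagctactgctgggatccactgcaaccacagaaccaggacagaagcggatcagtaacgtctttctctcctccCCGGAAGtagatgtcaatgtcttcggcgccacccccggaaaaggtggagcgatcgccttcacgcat
Timm10: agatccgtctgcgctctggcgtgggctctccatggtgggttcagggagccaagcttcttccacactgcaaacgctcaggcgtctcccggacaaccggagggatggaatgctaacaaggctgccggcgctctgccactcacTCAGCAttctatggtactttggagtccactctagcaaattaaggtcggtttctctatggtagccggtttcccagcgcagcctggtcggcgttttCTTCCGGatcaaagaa
The windows lie at chr3:87919294-87919543 (plus strand), chr8:126945922-126946171 (minus strand), chr15:79670618-79670867 (plus strand), chr9:105053018-105053267 (plus strand), chr10:80406822-80407071 (minus strand) and chr2:84826771-84827020 (plus strand). In Tomm20 the capitals hold TGACTCA, the AP-1 motif, which overlaps the reverse of TGCTGA, the core of the Maf recognition element. In Tomm22 they hold CCGGAAG, the ETS motif, on both strands in overlap. Mrpl3 and Uqcr11 hold the ETS motif on the gene's strand. Uqcr11 also has the NRF1 motif across its start, which the printed bases do not cover in full. Timm10 holds the reverse of the Maf core and the reverse of the ETS motif. None of the 7 motifs searched was found in the window of Mrpl24.

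Promoter windows of 300 bases (250 before and 50 after the start) that overlapped a member peak numbered 92, for 85 genes. Motifs were searched on both strands. The Maf core TGCTGA was in 10.9% of the member windows, against 15.9% of the 4297 windows under any peak and 18.1% of all 21263 windows. AP-1 (TGACTCA) was in 4.35, 2.86 and 4.66% of these windows, and the CRE motif (TGACGTCA) in 1.09, 5.19 and 2.23%. The bZIP motifs were thus not more frequent in member windows than in all windows. The ETS motif (CCGGAAG) was in 39.1% of the member windows, against 24.7% of windows under any peak and 11.6% of all. CATGCGC, part of the site of the regulator NRF1, was in 16.3, 9.54 and 4.8%. AAGATGGC, the YY1 motif, was in 16.3, 7.4 and 3.05%, and AAGGTCA, the core bound by oestrogen-related receptors, in 6.52, 2.37 and 4.08%. The median GC content of the windows was 58.0, 61.7 and 56.3%. These shares are descriptions with no test, and a match does not show binding.

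**Figure D1:**
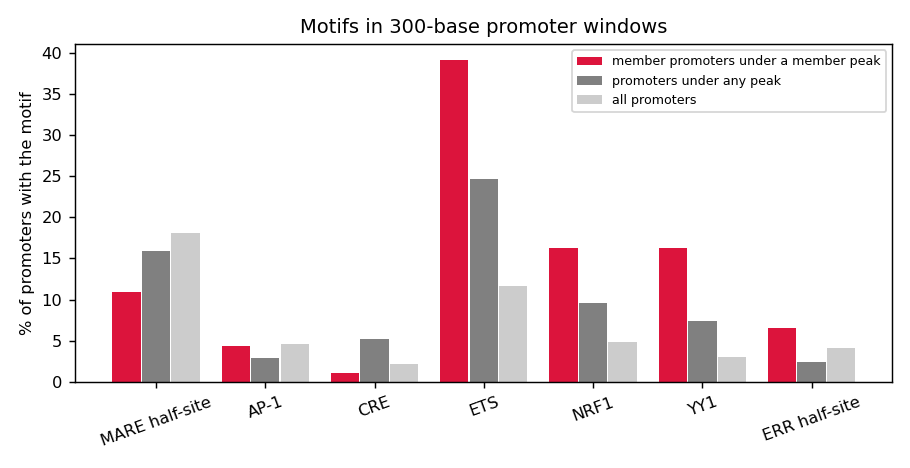
Share of 300-base promoter windows that hold each motif on either strand, in percent, for windows under a member peak (red), under any peak (dark grey) and all windows (light grey). The ETS bar of the member windows reaches 39.1%, against 11.6% of all windows, and the bar of the Maf core (MARE, far left) is lower in member windows (10.9%) than in all windows (18.1%).

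More than 1 in 2 of these genes had a peak, mostly at the start site. Of 213 protein-coding genes that fit the naming rule in RefSeq, 113 (53.1%) had a peak, against 6254 of 21900 protein-coding genes (28.6%). Subfamilies follow gene names, so complex I subunits here include Ndufa4, now known as a subunit of complex IV, and its relative Ndufa4l2, and complexes II and IV include assembly factors. The share was highest for complex V, with 13 of 17 genes, and complex II, with 6 of 8. It was 25 of 41 for complex I subunits, 11 of 16 for inner membrane import and 7 of 10 for outer membrane import. Fewer genes had a peak for complex I assembly factors (3 of 8), complex III (3 of 8), complex IV (12 of 27), and the large (20 of 49) and small (13 of 29) ribosomal subunits. A peak lay within 1 kb of the annotated start, called a promoter peak here, for 105 of the 127 members (82.7%), against 5106 of all 8996 peaks (56.8%). The rule uses names only, and these shares are given without a test. For 102 of the member promoter peaks a start on the opposite strand could be sought, and 23 (22.5%) had one within 1 kb, against 681 of 4967 promoter peaks (13.7%). The Ndufb5 peak, for example, also lies at the start of Mrpl47, so a peak at such a pair cannot be assigned to 1 gene alone.

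Members appeared in the authors' peak lists mostly from P10. The P2 list of 1221 peaks overlapped 12 members (9.45%, against 13.5% of all peaks and 14.8% of promoter peaks), and the P4 list 41 (32.3%, against 35.0 and 38.2%). The P10 list overlapped 102 members (80.3%, against 83.2 and 84.2%) and the P28 list 79 (62.2%, against 38.6 and 50.7%). In the full lists members were below the other peaks at P2, P4 and P10 and above them at P28. Found in the P28 list alone were 24 members (18.9%, against 8.7% of all peaks and 10.9% of promoter peaks), and in the P10 list alone 40 (31.5%, against 41.9 and 33.6%). No member was found in the P2 list alone, against 1.17% of all peaks and 0.431% of promoter peaks. In all 4 lists were 9 members (7.09%, against 7.41 and 10.2%). Both counts are near the shares of all peaks and are no result about the members. Among subfamilies, inner membrane import had 10 of 12 peaks in the P28 list and complex I subunits 20 of 27, while complex II had 3 of 8 and the small ribosomal subunit 7 of 15. The lists differ in length. With the 1221 strongest peaks of each list by the authors' own signal, members numbered 12, 20, 22 and 28 in order of age (9.45, 15.7, 17.3 and 22%). The shares of all peaks were then 13.5, 13.6, 13.6 and 13.6%, and those of promoter peaks 14.8, 13.0, 11.1 and 16.6%. With equal lengths members were therefore above both at P4 and P10 as well.

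**Figure D2:**
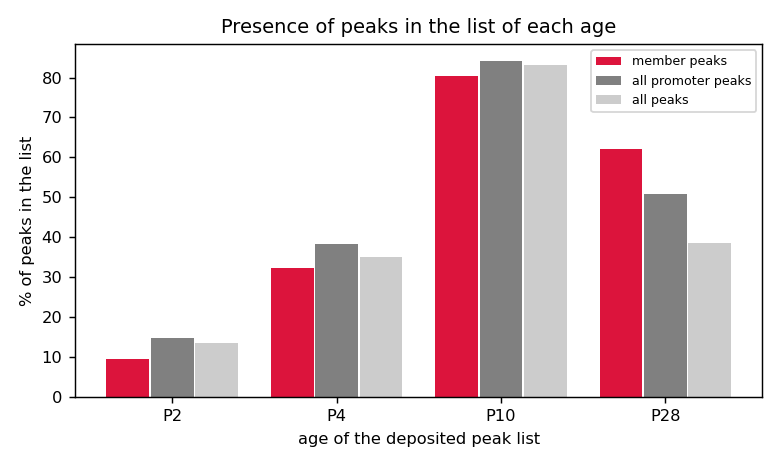
Share of peaks that overlap the authors' list of each age, in percent, for the 127 member peaks (red), all promoter peaks (dark grey) and all peaks (light grey). The member bar stands at 62.2% at P28, above the 50.7% of promoter peaks and the 38.6% of all peaks, and is below both at the other ages.

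Reads in the 8996 peaks ran from 49430 to 227692 per library, and those in members from 624 (P2 replicate 4) to 3253 (P10 replicate 4). The median member had 3 to 17 reads in a library. Members held 1.26% of the reads in peaks in P2 replicate 4 (Wilson 95% interval 1.17 to 1.36) and 1.45% in P2 replicate 3 (1.37 to 1.54), between 1.29 and 1.43% in the P4 and P10 libraries, and 1.68% in both P28 libraries (1.61 to 1.77 and 1.6 to 1.76). Both P28 libraries were above the other 6. The intervals cover counting error only. Levels are in RPKM, the reads divided by peak length and by the authors' scale for the library, and at the median peak width 3 reads equal 1.16 to 1.77 RPKM.

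The median member level was higher at each age up to P10, as was the median of all peaks, and at P28 it lay below P10 by less than the median of all peaks did. The median member level was 2.03 and 1.87 RPKM in the P2 libraries, 2.32 and 3.73 at P4, 5.76 and 5.77 RPKM at P10, and 4.52 and 4.51 at P28. The median of all peaks was 2.24 and 2.09, 2.52 and 4.48, 6.29 and 6.09, and 3.81 and 3.66 in the same order. The median of promoter peaks was 2.4 and 2.07, 2.5 and 4.29, 5.59 and 5.45, and 4.33 and 4.01. Members were below all peaks in the 6 libraries up to P10 and above them in both P28 libraries, and promoter peaks as a whole were likewise below all peaks at P10 and above them at P28. Against promoter peaks, members were lower in the 4 libraries of P2 and P4 and higher in the 4 of P10 and P28. The P4 libraries stood apart from each other, with replicate 4 at 3.73 RPKM closer to P10. The share of each library's scale inside peaks moved the same way, from 0.94 to 0.986% in the P2 libraries through 1.09 and 2.15% (P4) to 2.84 and 3.08% (P10) and back to 1.51 and 1.52% (P28), and its part in the differences between ages was not tested.

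**Figure D3:**
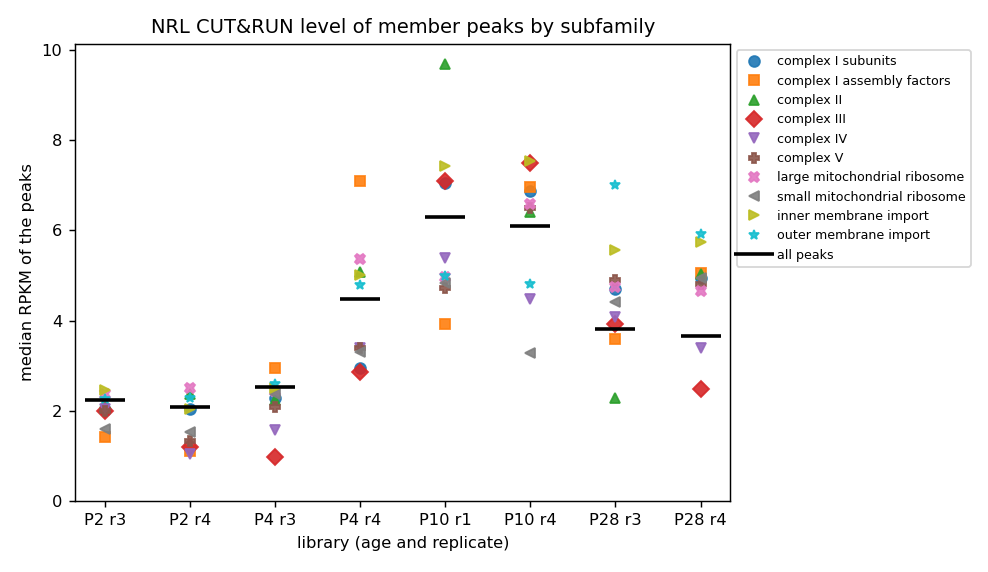
Median level in RPKM of the peaks of each subfamily (coloured marks) and of all 8996 peaks (black bars) in each of the 8 libraries. The black bar falls from 6.09 and 6.29 at P10 to 3.66 and 3.81 at P28, and most subfamily marks lie above it at P28.

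Differences between ages were tested on log2(RPKM + 1) with limma over all 8996 peaks, with a call at a Benjamini-Hochberg adjusted p under 0.05. On this scale the change of weak peaks is understated. The peaks tested were themselves called in these data, with 83.2% of all peaks and 80.3% of members in the P10 list. A peak listed at 1 age only was chosen where it was high, so a difference toward that age was favoured in advance. The effect of this choice on the counts below was not tested. Shares of all peaks were counted in the main fit only. Member counts from centred fits, other alternatives or fits without 1 library show how calls depend on the fit and are no result about members. Between P2 and P4 no member was called, and neither was any other peak (0.0%); 14 members (11%) had an unadjusted limma p under 0.05, against 15.2% of all peaks and 9.95% of promoter peaks. A limma-voom fit of the reads called 1 member, and leaving out P4 replicate 3 gave 12. The median log2 difference was 0.40 in members and 0.48 in all peaks, and the member value turned to -0.07 when libraries were centred on their medians. Any difference among the 4 ages was called for 54 members (42.5%), against 45.9% of all peaks and 28.1% of promoter peaks. It was called for 37 of the 105 member promoter peaks and 17 of the 22 other member peaks, against 69.2% of all peaks away from start sites. The 54 became 19 without P10 replicate 1 and 23 without P10 replicate 4.

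**Figure D4:**
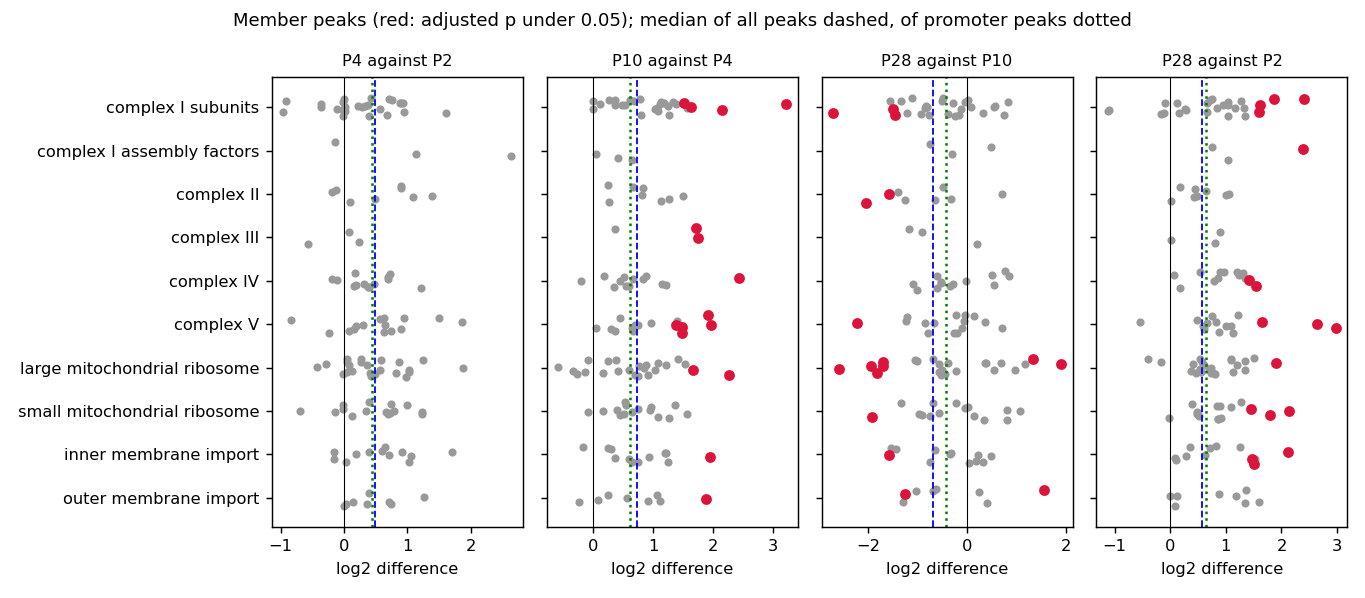
Difference in log2(RPKM + 1) of each member peak (points, by subfamily) for the 4 comparisons; red points have an adjusted p under 0.05, and vertical lines mark the median of all peaks (dashed) and of promoter peaks (dotted). Called members lie above 0 for P10 against P4 and P28 against P2, and 14 of 17 lie below 0 for P28 against P10.

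From P4 to P10, 16 members rose and 0 fell, among them the ATP synthase gene Atp5k, the complex I gene Ndufb3 and the import receptor gene Tomm20. The share that rose, 12.6%, was near the 15.6% of all peaks and above the 7.72% of promoter peaks. Among the 105 member promoter peaks alone, 9 rose (8.57%), near the share of all promoter peaks. Of all peaks 1.51% fell, and of promoter peaks 0.196%. Complex V had 5 of its 15 peaks called, complex I subunits 4 of 27 and complex III 2 of 3, while complex II, the complex I assembly factors and the small ribosomal subunit had none of 8, 3 and 15. The median difference was 0.75 in members and 0.73 in all peaks, and centred on library medians it was 0.04, with 2 members higher (Ndufb3 and Cox6c at 6508 bp) and 0 lower. The count rested on single libraries: without P4 replicate 4 it was 45, without P4 replicate 3 and without P10 replicate 1 it was 1, and without P10 replicate 4 it was 5.

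The peak assigned to Ndufb3, which codes for an accessory subunit of complex I, had 0.0 and 3.31 RPKM at P2, 0.442 and 1.99 at P4, 15.4 and 22.2 RPKM at P10, and 10.3 and 9.7 at P28. The P10 and P28 libraries were all above those of P2 and P4. Its level was also higher at P28 than at P2 (2.4, SE 0.59, adjusted p = 0.011 in limma), a call lost without P2 replicate 3. It differed by 3.23 on the log2 scale from P4 to P10 (SE 0.59, adjusted p = 0.0019 in limma), and in the 8 fits that each leave out 1 library by 2.7 to 3.76, with the call lost without P4 replicate 3 (highest adjusted p 0.07). This peak (chr1:58602565-58602851) is intergenic, 16181 bp past the start and 6601 bp beyond the end of Ndufb3.

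The peak assigned to Atp5k, the gene of the e subunit of ATP synthase, had 1.38 and 2.08 RPKM at P2, 6.49 and 12 at P4, 40.3 and 35.1 RPKM at P10, and 14.1 and 29.3 at P28. Both P2 libraries were below all later ones. The difference was 1.97 from P4 to P10 (SE 0.55, adjusted p = 0.018 in limma) and 2.98 from P2 to P28 (SE 0.55, adjusted p = 0.0012), and the second kept its call in all 15 alternative fits. The first was lost without P4 replicate 3, P10 replicate 1 or P10 replicate 4. The peak (chr5:108432830-108433103) lies 143 bp past the end of Atp5k and 1087 bp from Pde6b, the gene of the beta subunit of the rod phosphodiesterase, so its assignment to Atp5k is by distance only.

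Tomm20, a receptor of the outer membrane translocase, had 2 peaks. The one 15516 bp past its start was called lower at P28 than at P10 (-1.26 in limma), a call lost without any 1 of the 4 libraries of these ages. The one at its start (chr8:126945857-126946342), over the Maf and AP-1 letters printed above, had 5.96 and 3.52 RPKM at P2, 4.18 and 15.9 at P4, 37.3 and 30.0 RPKM at P10, and 18.2 and 13.8 at P28. The P10 libraries were the highest and did not overlap those of any other age. It rose by 1.88 from P4 to P10 (SE 0.58, adjusted p = 0.029 in limma), a call lost without P4 replicate 3, P10 replicate 1 or P10 replicate 4. Uqcrc1, the gene of a core subunit of complex III, had 1.21 and 3.16 RPKM at P4 and 8.98 and 9.48 at P10 (1.75, SE 0.48, adjusted p = 0.016 in limma), and Uqcr11, of the same complex, had 0.635 and 2.86 and then 7.09 and 7.49 (1.72, SE 0.49, adjusted p = 0.02). In both the P10 libraries were above those of P4, and both calls were lost without any 1 of the same 3 libraries. The peak in the last intron of Vps13b that the authors gave to Cox6c, 6508 bp past its start, had 0.0 and 0.629 RPKM at P4 and 6.94 and 4.95 at P10. Its scaled reads were 19.7-fold higher at P10 (exact 95% interval 3.13 to 818, on 1 and 19 reads), with a call (adjusted p = 0.0023 in limma) that was lost without P4 replicate 3 or P10 replicate 1. Cox6c was named after its values were seen.

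From P10 to P28, 14 members fell and 3 rose. The members that fell, 14 of 127 (11%), were fewer than the 20.7% of all peaks and more than the 8.95% of promoter peaks. The members that rose, 2.36%, stood against 1.29% of all peaks and 0.803% of promoter peaks. Among the 105 member promoter peaks alone, 5 fell (4.76%) and 3 rose (2.86%). Both counts are small, and their difference from the shares of all promoter peaks was not tested. The median difference was -0.48 in members, -0.69 in all peaks and -0.42 in promoter peaks. With libraries centred on their medians the member value turned to 0.13. In that fit 8 members were higher (Tomm22, Mrpl3, Mrpl20, Mrpl39, Mrpl44, Mrps24, Sdhaf3 and Cox15). The 4 lower were Ndufa4l2, Mrpl24, Mrpl45 and the Atp5l promoter peak. The share of all peaks called in the centred fit was not counted beside them. Of the 23 peaks of the large ribosomal subunit 5 fell and 2 rose, and complex I subunits by name had 3 of 27 lower, 1 of which was Ndufa4l2, and complex II 2 of 8. Without P10 replicate 1 the lower calls numbered 1, without P10 replicate 4 they were 4, without either P28 library 7, and without P4 replicate 3 or 4 they were 24 and 23. Without P10 replicate 1, P10 replicate 4 or P28 replicate 3 the higher calls numbered 1.

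All 3 peaks that rose span a start site. Tomm22, the central receptor of the outer membrane translocase (chr15:79670750-79670879), had 2.91 and 2.93 RPKM at P2, 1.95 and 4.39 at P4, 4.85 and 0.96 RPKM at P10, and 10.7 and 7.56 at P28. Only the P28 libraries stood apart from the others. The reads behind these values were 5, 6, 5 and 15 summed over the libraries of each age. The difference from P10 to P28 was 1.56 (SE 0.53, adjusted p = 0.037 in limma) and the call was lost without P10 replicate 4 or P28 replicate 3, with a highest adjusted p of 0.49.

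Mrpl3, a protein of the large subunit (chr9:105053158-105053309), had 0.0 and 3.28 RPKM at P10 and 7.13 and 6.46 at P28, and 0.939 to 2.5 at the earlier ages. Its P28 libraries were above the other 6. The difference was 1.91 (SE 0.54, adjusted p = 0.016 in limma), lost without P10 replicate 1. Mrpl20, of the same subunit (chr4:155803433-155803745), had 1.01 and 0.797 RPKM at P10 and 3.46 and 4.18 at P28 (1.34, SE 0.46, adjusted p = 0.037 in limma), on 4 and 15 reads, a call lost without any 1 of those 4 libraries. Mrpl3 and Mrpl20 are below the median level of all peaks and were named after their values were seen.

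Mrpl24, a protein of the large subunit, had the strongest member peak (chr3:87919362-87919555), with 11 and 9.81 RPKM at P2, 11.8 and 30.9 at P4, 70.7 and 56.0 RPKM at P10, and 16.0 and 15.2 at P28. The P10 libraries were the highest, and those of P28 lay within the range of P4. It rose from P4 to P10 (1.66, SE 0.56, adjusted p = 0.041 in limma) and fell by 1.95 from P10 to P28 (SE 0.56, adjusted p = 0.016). The second call was lost without any 1 of the 4 libraries of P10 and P28, and the first without any 1 of these or P4 replicate 3. Ndufa4l2, a relative of the complex IV subunit Ndufa4, had 4.81 and 2.9 RPKM at P2, 4.85 and 13.1 at P4, 12 and 15.2 RPKM at P10, and 1.18 and 1.25 at P28. It fell by 2.71 (SE 0.53, adjusted p = 0.0013 in limma), and the scaled reads were 11.4-fold lower (exact 95% interval 2.85 to 98.9, on 26 reads at P10 and 2 at P28). This call held in each of the 8 fits without 1 library (-2.87 to -2.56), although not with the values as deposited. The peak (chr10:127512084-127512214) is intergenic in the authors' annotation, at -2753 bp from the start, and inside Ndufa4l2 in RefSeq.

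The other strong peaks that fell had the same shape, high at P10. Mrps33 at 2040 bp (chr6:39808579-39808845), in the first intron of the small subunit gene, had 47.8 and 43.9 RPKM at P10 and 12.2 and 10.4 at P28 (fell by 1.93, SE 0.59, adjusted p = 0.022 in limma). Mrpl41 at 1569 bp had 35.6 and 26.5 and then 8.91 and 7.24 (fell by 1.81, SE 0.61, adjusted p = 0.037 in limma). Both calls were lost without any 1 of the 4 libraries of P10 and P28. The other Mrps33 peak, at its start, did not fall (5.14 and 3.78 RPKM at P10, 6.14 and 5.72 at P28). With 2.94 and 0.0 RPKM at P2, it was called higher at P28 than at P2 (1.8, SE 0.54, adjusted p = 0.031 in limma). That call was lost without P2 replicate 4 or P28 replicate 3. Sdhb at 3323 bp, in the first intron of the gene of the iron-sulfur subunit of complex II, had 13.6 and 8.69 and then 0.635 and 4.03 (fell by 2.05, SE 0.57, adjusted p = 0.015 in limma), a call lost without P10 replicate 1 or P28 replicate 3. The peak 15574 bp past the start of Mrpl45 (chr11:97331482-97331653) had 1.46 and 3.32 RPKM at P2, 3.69 and 8.3 at P4, 38.5 and 24.7 RPKM at P10, and 6.3 and 2.86 at P28. It rose by 2.27 and fell by 2.58 (SE 0.56 for both, adjusted p = 0.009 and 0.0027 in limma). The rise was lost without P4 replicate 3 or P10 replicate 1, and the fall without P10 replicate 1. It lies 456 bp from Gpr179, a gene of the ON bipolar cell synapse, and 1562 bp beyond the end of Mrpl45.

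From P2 to P28, 17 members rose and 0 fell. The share, 13.4%, stood against 9.64% of all peaks and 7.83% of promoter peaks that rose, and 3.0 and 0.392% that fell. Among the 105 member promoter peaks alone, 13 rose (12.4%). Complex I subunits had 4 of 27 peaks called, and complex V (of 15), the small ribosomal subunit (of 15) and inner membrane import (of 12) 3 each. Complex IV had 2 of 13, the large subunit 1 of 23 and the complex I assembly factors 1 of 3, while complex II, complex III and outer membrane import had 0 of 8, 3 and 8. The difference of subfamilies from each other was not tested. The median was 0.84 in members, 0.57 in all peaks and 0.65 in promoter peaks, and centred on library medians it was 0.26, with 5 members higher (Atp5k, Atp5l at -21730 bp, Ndufaf5, Mrps24 and Timm50) and 2 lower (Ndufa4l2 and Ndufb11). The count of members higher was 8 without P2 replicate 4 and without P28 replicate 3, and 11 without P28 replicate 4.

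Mrps24, of the small ribosomal subunit (chr11:5707664-5707826), had 1.55 and 1.17 RPKM at P2, 1.56 and 4.38 at P4, 4.83 and 3.06 RPKM at P10, and 8.55 and 10.0 at P28. The P28 libraries were the highest of the 8. The difference was 2.13 (SE 0.49, adjusted p = 0.0061 in limma) and held in every fit without 1 library (2.01 to 2.24), and the scaled reads were 6.65-fold higher (exact 95% interval 1.96 to 35.1, on 3 and 19 reads). Timm50, the receptor of the inner membrane translocase (chr7:28312012-28312198), had 1.35 and 2.03 RPKM at P2, 5.43 and 10.7 at P4, 12.6 and 14.7 RPKM at P10, and 7.45 and 14.9 at P28 (2.12, SE 0.54, adjusted p = 0.012 in limma). Its P2 libraries were below all others, and the call was lost without P2 replicate 3 or P28 replicate 4. Ndufaf5, an assembly factor of complex I, had no read at P2 and 3.08 and 5.7 RPKM at P28, at least 3.85-fold higher when a floor of 3 reads stands for the P2 libraries. By counting error alone, with 11 reads at P28 and 0 at P2, the exact 95% limit lies lower, at 2.64-fold. Its call (adjusted p = 0.0023 in limma) held in all 14 alternative fits that held this peak, which the filter at the median level removes. This peak is in intron 8 of 10 of Ndufaf5 (chr2:140202601-140202801). Mrpl38 had 1.79 and 0.0 RPKM at P2 and 6.61 and 4.08 at P28 (1.9, SE 0.55, adjusted p = 0.027 in limma), lost without P2 replicate 4 or P28 replicate 3. Timm10, a small chaperone between the membranes whose promoter is printed above, had 1.96 and 1.78 RPKM at P2 and 7.24 and 7.14 at P28 (1.51, SE 0.5, adjusted p = 0.045 in limma). Its libraries at P28 were far above those at P2, yet 6 of the 8 fits without 1 library lost the call, with a highest adjusted p of 0.18.

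The peak that the authors assigned to Atp5l, 21730 bp before its start (chr9:44942472-44942786), lies in the 3′ UTR of Ube4a. It had 2.0 and 0.604 RPKM at P2, 2.82 and 9.07 at P4, 26 and 19.4 RPKM at P10, and 10.8 and 14.6 at P28. It rose from P4 to P10 (1.92, SE 0.57, adjusted p = 0.023 in limma) and was higher at P28 than at P2 (2.63, SE 0.57, adjusted p = 0.004), the second call lost without P2 replicate 4 and the first without P4 replicate 3, P10 replicate 1 or P10 replicate 4. The second Atp5l peak, at -139 bp from the start, had 2.39 and 1.8 RPKM at P2, 1.81 and 3.38 at P4, 11.9 and 6.5 RPKM at P10, and 0.734 and 1.55 at P28. It too rose from P4 to P10 (1.49, SE 0.48, adjusted p = 0.034 in limma), a call lost without any 1 of the same 3 libraries. Its scaled reads were 7.87-fold lower at P28 (exact 95% interval 2.42 to 40.6; adjusted p = 0.0024 in limma, lost without P10 replicate 1). The P28 libraries were below those of P2 at this peak, but that difference was not called (-0.55, SE 0.48, adjusted p = 0.43 in limma). Both peaks of this gene were highest at P10, and the difference between their courses was not tested.

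**Figure D5:**
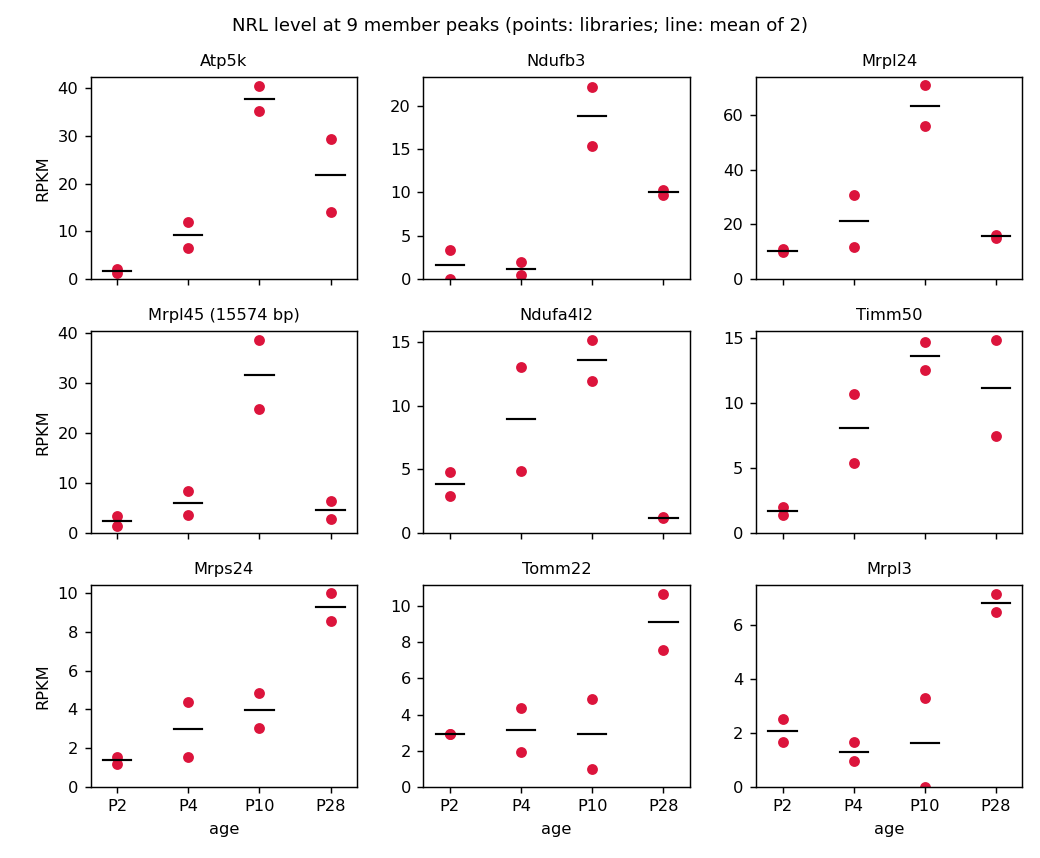
Level in RPKM of 9 member peaks by age, with the 2 libraries of each age as points and their mean as a line; each panel has its own axis from 0. Atp5k, Ndufb3, Mrpl24 and Mrpl45 are highest at P10, Ndufa4l2 is lowest at P28, and Mrps24, Tomm22 and Mrpl3 are highest at P28.

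The share called was larger for members away from start sites than for those at promoters, and the same held over all peaks. Of the 22 member peaks more than 1 kb from a start, 7 rose from P4 to P10 and 9 fell from P10 to P28, whereas 9 rose and 5 fell among the 105 promoter peaks. The shares of the 22 were 31.8 and 40.9%, near the 26% that rose and 36.0% that fell among all 3890 peaks away from start sites, of which 3.24% fell from P4 to P10 and 1.93% rose from P10 to P28. The median difference from P10 to P28 was -1.25 in the 22 and -0.26 in the 105, against -1.16 in the 3890 and -0.42 in all promoter peaks, and the 3 that rose were all promoter peaks. From P2 to P28, 4 of the 22 (18.2%) and 13 of the 105 rose, while 12% of the 3890 rose and 6.43% fell. The difference between these groups was not tested.

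Most of the other peaks that were strongest in their subfamily had no call in any of the 4 comparisons, although a difference among the 4 ages was called in limma for Ndufa10 (adjusted p = 0.0018), Sdhaf1 at 1357 bp (0.009), Atp5d (0.029), Cox6a1 (0.036) and Ndufaf8 (0.036). Ndufa10, of complex I, had 1.34 and 5.06 RPKM at P2, 25.1 and 42.5 at P10, and 8.24 and 13.1 at P28. Atp5d, the delta subunit of ATP synthase, had 8.08 and 4.31 at P2, 27.9 and 26.8 at P10, and 8.18 and 15.4 at P28. Both were highest at P10. Tomm40l, a relative of the pore protein Tomm40, and Ndufb5, of complex I, had overlapping libraries at P2 and P28: Tomm40l had 15.4 and 8.97 RPKM at P2 and 14.2 and 11.2 at P28, and Ndufb5 15.3 and 9.54 and then 13.3 and 8.48. The promoter peak of Sdhb had 4.03 and 6.09 RPKM at P2, 21.0 and 16.3 at P10, and 7.85 and 6.55 at P28. Sdhaf1, an assembly factor of complex II, had 2.42 and 4.39, 22.4 and 21.1, and 8.34 and 6.93 at these ages at 1357 bp past its start. Mrps18b, of the small ribosomal subunit, had 10.6 and 6.84, 24.5 and 17.9, and 14.8 and 10.8. In these 3 peaks the P10 libraries were the highest of the ages named. Cox6a1 and Cox20, of complex IV and its assembly, lay between 0.906 and 13.5 RPKM and between 3.09 and 8.97 RPKM over the 8 libraries, and the assembly factor Ndufaf8 between 1.1 and 8.8. Timm13, a further chaperone between the membranes, was called. It had 24.7 and 27.2 RPKM at P10 and 8.18 and 7.81 at P28 and fell by 1.58 (SE 0.56, adjusted p = 0.044 in limma), a call lost without any 1 of those 4 libraries.

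Related mitochondrial genes outside the naming rule were read at the strongest peak of each gene. Of 20 genes of the TCA cycle and pyruvate entry, 12 had a peak. Dld, the shared dehydrogenase subunit of the pyruvate and oxoglutarate complexes, rose from P10 to P28 (1.46 and 0.773, then 4.32 and 5.07 RPKM; adjusted p = 0.047 in limma), while Pdhb, of pyruvate dehydrogenase, fell (13.7 and 14.5, then 4.86 and 3.93; adjusted p = 0.041). Dld and Sucla2, of succinyl-CoA ligase, were higher at P28 than at P2 (adjusted p = 0.031 and 0.028 in limma). Of 24 other assembly genes, 16 had a peak. Ttc19 fell from P10 to P28 (33.2 and 51.7, then 7.26 and 5.12 RPKM; adjusted p = 0.0027 in limma) at a peak 4738 bp past its start, and Ecsit and Tmem126b, both of complex I assembly, were higher at P28 than at P2 (adjusted p = 0.046 and 0.028). In the 8 fits without 1 library these calls held in 2 to 7, the Ttc19 call being lost without P10 replicate 4. Centred on library medians, Dld from P10 to P28 (adjusted p = 0.021 in limma) and Ttc19 (0.0081) kept their calls, while Pdhb (0.11), Dld and Sucla2 from P2 to P28 (0.17 and 0.24), Ecsit (0.23) and Tmem126b (0.14) lost them. Of 22 genes of mitochondrial transcription and translation, 20 of the import motor, chaperones and proteases, and 14 of dynamics and cristae, 9, 11 and 10 had a peak and 0 were called in any comparison. Over all promoter peaks 7.72% rose from P4 to P10, and 7.83% rose from P2 to P28. From P10 to P28, 8.95% of them fell and 0.803% rose. Of all peaks away from start sites, as the Ttc19 peak is, 36.0% fell from P10 to P28. With so few genes per list, low counts or none are near these shares and are no result about the lists.

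Of 14 nuclear regulators of mitochondrial genes, 7 had a peak. Esrrb, which codes for an oestrogen-related receptor, had a peak 3264 bp past its start with 5.93 and 6.97 RPKM at P2, 12 and 32.9 at P4, 158.0 and 115.0 RPKM at P10, and 105.0 and 133.0 at P28. It rose from P4 to P10 (2.7, SE 0.56, adjusted p = 0.0031 in limma) and was higher at P28 than at P2 (4.0, SE 0.56, adjusted p = 0.00011). On log2(RPKM + 1), which understates the change of weak peaks, its difference from P2 to P28 exceeds that of every member peak for the same ages. This call held in each fit without 1 library, while the rise from P4 to P10 was lost without P10 replicate 1. Nrf1, a regulator of respiratory genes, had 17.1 and 7.89 RPKM at P10 and 2.8 and 0.986 at P28 at a peak 23575 bp past its start (fell by 2.21, SE 0.57, adjusted p = 0.0093 in limma), a call lost without P10 replicate 1 or P28 replicate 4.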

How the data were processed

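NRL CUT&RUN was measured in 15 labelled retina libraries, of which 8 have a column in the quantitation table. Tools named in the submitters' processing notes are bedtools 2.29.0, MACS2 2.2.5, Picard 2.20.8, Bowtie2 2.3.5.1, Trimmomatic 0.38 and SAMtools 1.9, with the builds GRCm38.p6 and ASM584v2. The deposited values are RPKM, as the values themselves show. The authors' peak lists, 1 per age, give a signal and a score per peak, which served here for ranking only. Each RPKM column had been divided by the width of a peak 39 rows further up than in the column before, over a vector of 9035 widths. Undoing this division gave whole reads (tolerance 0.001) in 100.0% of cells, from which RPKM was rebuilt with the peak's true width. log2(RPKM + 1) was fitted in limma 3.58.1 (R 4.3.3; trend, robust; age as factor; 4 residual degrees of freedom), without a filter and without the replicate number as a block. The script was tested on simulated data.

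Members, lists and rules were chosen with earlier results of these data known. The peaks named were the 2 strongest of each subfamily, Tomm22 and called genes of the pathway lists. Up to 6 highest and 6 lowest differences among called members at or above the median level of all peaks were also named. Timm10, Mrpl3, Mrpl20, Cox6c and the second Atp5l peak were added after their values were seen. So were the Mrps33 peak at its start and the Tomm20 peak at 15516 bp. Gene symbols and positions are the authors' annotation, and promoters and neighbours are from RefSeq. Alternatives covered the width, pseudocount, filter, centring, limma-voom, samples fitted, block and each library left out. Python 3.11.15 with pandas 2.3.3, SciPy 1.17.1, NumPy 2.4.6 and Matplotlib 3.10.9 was used.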

Additional observations from a re-analysis of the deposited data

How the results depend on the processing

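The number of member calls depended on the processing, and no call of a step between neighbouring ages held in all 15 alternative fits; of the 17 from P2 to P28, that of Atp5k did, and that of Ndufaf5 held in the 14 that kept its peak. For P4 against P2, 1 member was called higher with a pseudocount of 0.1, limma-voom, only the 2 ages compared or the replicate block, and the median was 0.70 with a filter at the median level and -0.07 centred. For P10 against P4, members higher were 7 with the values as deposited, 0 with a pseudocount of 0.1, 2 centred, 30 with limma-voom, 2 with the replicate block and 9 over promoter peaks only; the median was 0.95 with a pseudocount of 0.1 and with limma-voom, 0.98 filtered and 0.04 centred. For P28 against P10, higher and lower calls were 0 and 9 as deposited, 0 and 3 with a pseudocount of 0.1, 8 and 4 centred, 5 and 26 with only the 2 ages and 1 and 1 with the replicate block; higher calls were 1 filtered and 1 with limma-voom, and lower calls 5 over promoter peaks; the median was -0.75 filtered, 0.13 centred and -0.26 over promoter peaks. For P28 against P2, members higher were 7 as deposited, 6 with a pseudocount of 0.1, 11 filtered, 5 centred (with 2 lower) and 10 with only the 2 ages; the median was 1.13, 0.26 and 1.09 with a pseudocount of 0.1, centred and with limma-voom. For any age, calls were 24 as deposited, 19 with a pseudocount of 0.1, 17 centred and 22 with the replicate block. With lists of equal length, chosen after seeing the data as were the alternatives for any age, members in the P4, P10 and P28 lists numbered 20, 22 and 28. The signs of the centred medians for P4 against P2 and P28 against P10 turned. With the replicate block, P10 replicate 1 is fitted exactly, since no other library in the table has its number. The P10 level then rests on P10 replicate 4. The causes of these changes were not tested, and the share of all peaks called in these fits was not counted.

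Leaving out 1 library each gave 0 to 12 members higher for P4 against P2, 1 to 45 for P10 against P4, 1 to 4 higher and 1 to 24 lower for P28 against P10, 8 to 21 higher for P28 against P2 and 19 to 63 for any age, with medians of 0.13 to 0.70, 0.47 to 1.09, -0.49 to -0.31 and 0.72 to 0.87 in the order of the comparisons. Where an age kept 1 library, that library was assumed to vary like the other ages. The uncalled differences of Tomm22 changed sign. For P4 against P2 it was 0.03, and -0.31 as deposited, -0.44 centred, -0.03 with limma-voom and -0.41 to 0.46 without 1 library. For P10 against P4 it was -0.24, and -1.03 to 0.55 without 1 library (0.20 without P4 replicate 4).

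Deviations of same-numbered libraries from the mean of their age correlated at 0.0853 (P2 and P4), 0.05 (P2 and P28) and 0.0291 (P4 and P28). For P10 with P2, P4 and P28 the values were -0.0128, -0.0107 and -0.00103. With 2 libraries per age each pair of ages gives only 1 value, apart from its sign. The correlations therefore cannot show whether same-numbered libraries were prepared together, and the labels give only the number. With the replicate block 16 members were higher for P28 against P2, and the medians were 0.40, 0.72, -0.42 and 0.84. The median member had 3 to 17 reads per library, and the effect of depth on the calls was not tested.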
